A study of Mus musculus with 42 samples.

Results

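Tru4 is the name of the libraries that were built from 4 ng of total RNA with a TruSeq RNA kit from Illumina, which does not mark the strand of a transcript. They were 6 of the 42 libraries of the series, and all came from liver of untreated mice of the genotype Gfi1Cre/+;Rpl22HA/HA, 3 input and 3 IP libraries. The animals carry Cre recombinase knocked into one copy of Gfi1 and both copies of the RiboTag allele of Rpl22, so every library comes from Cre-positive tissue and no mouse without Cre was compared. The input is RNA of the whole liver, and the IP is RNA from ribosomes that were pulled from the homogenate by the HA tag of RPL22, a ribosomal protein. The stage field of the labels calls the animals neonatal P1 pups, while the growth and extraction fields and the study's methods give P30, and no result here uses the age.

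Of the 6 libraries, 2 libraries were used against their fraction label. The library labelled IP replicate 3 was taken as input and the library labelled input replicate 3 as IP, an exchange that rests on the gene number the study lists for each library. Hemoglobin genes took 12.9% of the counts of the library labelled input replicate 3 and 0.132% of those of the library labelled IP replicate 3, against 0.167% and 0.144% in labelled inputs 1 and 2 and 20.9% and 14.3% in labelled IPs 1 and 2. Across 25058 genes, the library labelled IP replicate 3 had a Spearman correlation of 0.940 to 0.946 with the 3 input libraries made from 70 ng of RNA (Tru70, labels as deposited) and 0.870 to 0.892 with the Tru70 IP libraries. The library labelled input replicate 3 had 0.891 to 0.895 with Tru70 input and 0.918 to 0.945 with Tru70 IP. These correlations are a description across genes of libraries made from the same biological replicates. In the text below, input replicate 3 and IP replicate 3 mean the exchanged libraries, and the main counts are also given without both of them.

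**Figure D1:**
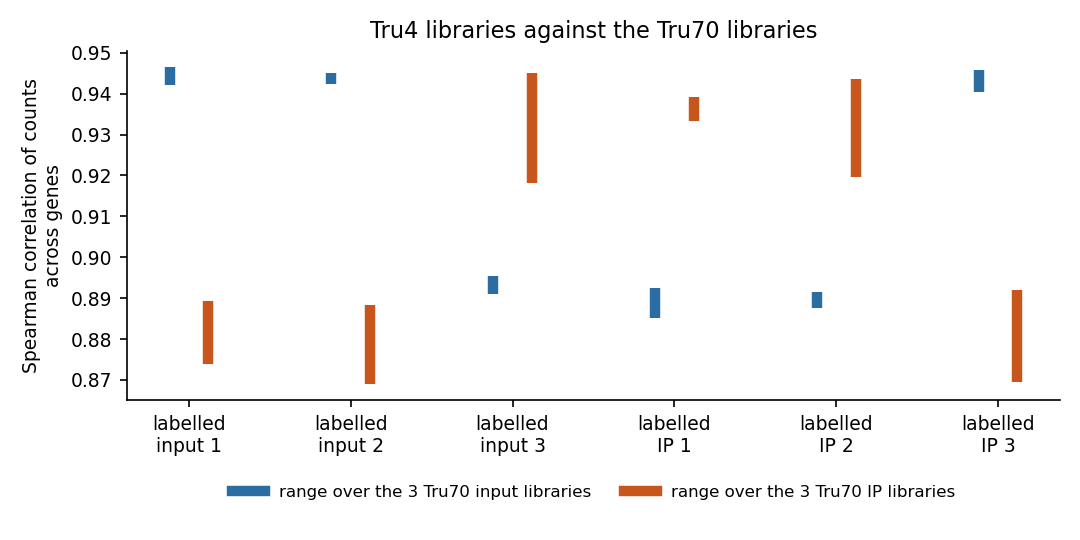
Spearman correlation across genes of each Tru4 library, named by its deposited label, with the 3 Tru70 input libraries (blue bars, lowest to highest) and the 3 Tru70 IP libraries (orange bars). The library labelled IP 3 lies with the inputs (0.940 to 0.946 with Tru70 input), and the library labelled input 3 lies with the IPs (0.918 to 0.945 with Tru70 IP).

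Sex-linked genes set both libraries of replicate 3 apart from the other 4 libraries. Xist, the RNA that coats the inactive X chromosome, was at 175 CPM (counts scaled to a common library total) in input replicate 3 and 219 CPM in IP replicate 3, against 0.288, 0.506, 0.666 and 1.75 CPM in the libraries of replicates 1 and 2. Ddx3y, an RNA helicase gene of the Y chromosome, was at 0.735 and 0.951 CPM in the replicate 3 libraries and between 61.2 and 107 CPM in the other 4. The same split was seen in Tru70, where Xist was at 119 and 151 CPM in the replicate 3 libraries and at most 0.0671 CPM in the others. These sex-linked genes were chosen after their values were seen. Within each replicate number of Tru4 both were also higher in IP than in input in CPM, which was not tested.

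The RiboTag allele adds an HA tag to RPL22, a protein of the large ribosomal subunit, in cells in which Cre has been active and in all cells that descend from them, so the antibody brings down ribosomes with the mRNA they were translating. Gfi1 encodes a zinc finger repressor that blood stem cells, granulocytes and lymphocytes use. Kupffer cells are the resident macrophages of the liver, hepatocytes make the bulk of its RNA, and sinusoidal endothelial cells, stellate cells and bile duct cells make up most of the remainder.

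Of 15868 genes tested, 4105 (25.9%) were higher and 3845 (24.2%) were lower in IP than in input at an adjusted p under 0.05 (edgeR's quasi-likelihood test, Benjamini-Hochberg, called edgeR adjusted p from here on), 50.1% in all. Among the calls 1213 genes were at least 8-fold higher and 137 at least 8-fold lower, and 292 were at least 32-fold higher and 9 at least 32-fold lower. Single replicates were also compared, by CPM ratios without scaling factors or a test, among genes with at least 20 input counts. These numbers therefore differ from the calls in measure and in the genes used. The ratios were at least 32-fold higher for 107, 301 and 213 genes in replicates 1, 2 and 3. They were at least 32-fold lower for 240, 171 and 16 genes in the same order. Genes at 0 counts in IP are among the lower ones. The IP totals were 18031264, 28571125 and 36785680 counts in the same order, and the part of depth in these numbers was not tested. In CPM without scaling factors, which lie higher in IP than scaled values do, every IP library lay above every input library for 6849 genes (43.2%) and below for 2753 genes (17.3%). Without both libraries of replicate 3, 3058 of 15748 genes (19.4%) were higher and 2740 (17.4%) lower, of which 3012 and 2652 were among the calls with all 6 libraries. With the fractions taken as labelled, 0 genes passed in either direction by edgeR and 37 had an unadjusted p under 0.05. The split depended on scaling. TMM factors were 0.821 to 0.851 for the inputs and 1.02, 1.28 and 1.30 for the IPs, so a log2 fold change is lower than the one read from CPM. With library totals alone the median of all genes moved by 0.52 on the log2 scale, and 6035 genes were higher and 1965 lower, so that higher genes were 75.4% of the calls against 51.6% with TMM. No call turned to the opposite side.

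Gfi1, the gene that drives Cre, was counted at 0.288, 0 and 0 CPM in the input libraries and 0.499, 1.33 and 1.09 CPM in the IP libraries. The IP libraries lay above the inputs, but at 0 to 1.33 CPM the difference did not pass (log2 fold change 2.88 ± 1.27 (SE), edgeR adjusted p = 0.0891), and without replicate 3 the edgeR adjusted p was 0.295, while the difference passed as higher without replicate 1 and without its input library alone. The study reported Gfi1 as enriched in IP by real-time RT-PCR before sequencing, a measurement apart from these counts. Rpl22, which carries the tag, was at 75.9, 68.9 and 80.7 CPM in the input libraries and 139.9, 67.4 and 67.9 CPM in the IP libraries. Its levels overlapped between the fractions (log2 fold change -0.16 ± 0.35 (SE), edgeR adjusted p = 0.732), with IP replicate 1 the highest of the 6, and Rpl22 was called lower without replicate 1 or without that library. Gapdh, a glycolytic enzyme with many near-identical pseudogenes whose counts are therefore uncertain, was at 2.49, 3.76 and 4.44 CPM in the input libraries and 0.111, 2.31 and 7.94 CPM in the IP libraries and did not pass (log2 fold change -0.63 ± 0.85 (SE), edgeR adjusted p = 0.572).

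The identity genes of Kupffer cells were higher in IP without exception. All 16 members of the list were tested and all 16 were higher, with every IP library above every input library for each of them, and 16 of 16 passed without replicate 3. Their summed level was 709, 664 and 686 CPM in the input libraries and 15187, 23686 and 21437 CPM in the IP libraries, which is a share of 1.52% to 2.37% of IP counts against 0.0664% to 0.0709% of input counts. The median log2 fold change was 4.52, beside -0.05 over all genes tested. In a bulk library fewer cells of a type and less RNA per cell cannot be told apart, and IP against input compares the share that a gene's RNA takes in each fraction of the liver.

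Clec4f, a galactose-binding lectin found on Kupffer cells, was at 148.5, 134 and 154 CPM in the input libraries and 6357, 8485 and 8193 CPM in the IP libraries (log2 fold change 5.20 ± 0.21 (SE), edgeR adjusted p = 5.45e-07). Cd5l, a secreted macrophage protein that binds lipids, was at 77.6, 81.8 and 91.9 CPM in the input libraries and 2706, 4689 and 4512 CPM in the IP libraries (log2 fold change 5.03 ± 0.23 (SE), edgeR adjusted p = 7.2e-07). The scavenger receptor gene Marco was at 14.1, 10.997 and 13.3 CPM in the input libraries and 667, 726 and 703 CPM in the IP libraries (log2 fold change 5.27 ± 0.20 (SE), edgeR adjusted p = 5.45e-07). Timd4, a receptor for phosphatidylserine on dying cells, Vsig4, a complement receptor, and Cd163, the receptor for haptoglobin-bound hemoglobin, had log2 fold changes of 4.74 ± 0.18, 4.400 ± 0.26 and 4.51 ± 0.22. Csf1r, the receptor for the macrophage growth factor CSF1, rose from 51.8, 48.1 and 48.9 CPM to 868, 2124 and 1558 CPM, although its exons overlap some of a gene on the opposite strand, whose reads cannot be told apart. Spic, a transcription factor of heme-handling macrophages, was the member with the lowest input level, at 2.88, 0.902 and 0.933 CPM, and reached 49.1, 56.3 and 45.7 CPM in IP. IP replicate 1 was the lowest of the IP libraries for 13 of the 16 members, and it was still above every input.

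The smallest changes of the list belonged to Nr1h3, Id3 and Slc40a1. Nr1h3, the sterol-sensing nuclear receptor LXR alpha, which hepatocytes express too, was at 102, 101 and 90.8 CPM in the input libraries and 264, 272 and 268 CPM in the IP libraries (log2 fold change 0.95 ± 0.15 (SE), edgeR adjusted p = 0.000776). Id3, an inhibitor of helix-loop-helix factors, had a log2 fold change of 1.71 ± 0.31 (edgeR adjusted p = 0.00149). Slc40a1, the iron exporter ferroportin, had one of 3.27 ± 0.19 (edgeR adjusted p = 1.84e-06). The other 13 members lay between 4.34 for Adgre1, which encodes the F4/80 antigen, and 5.27 for Marco.

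**Figure D2:**
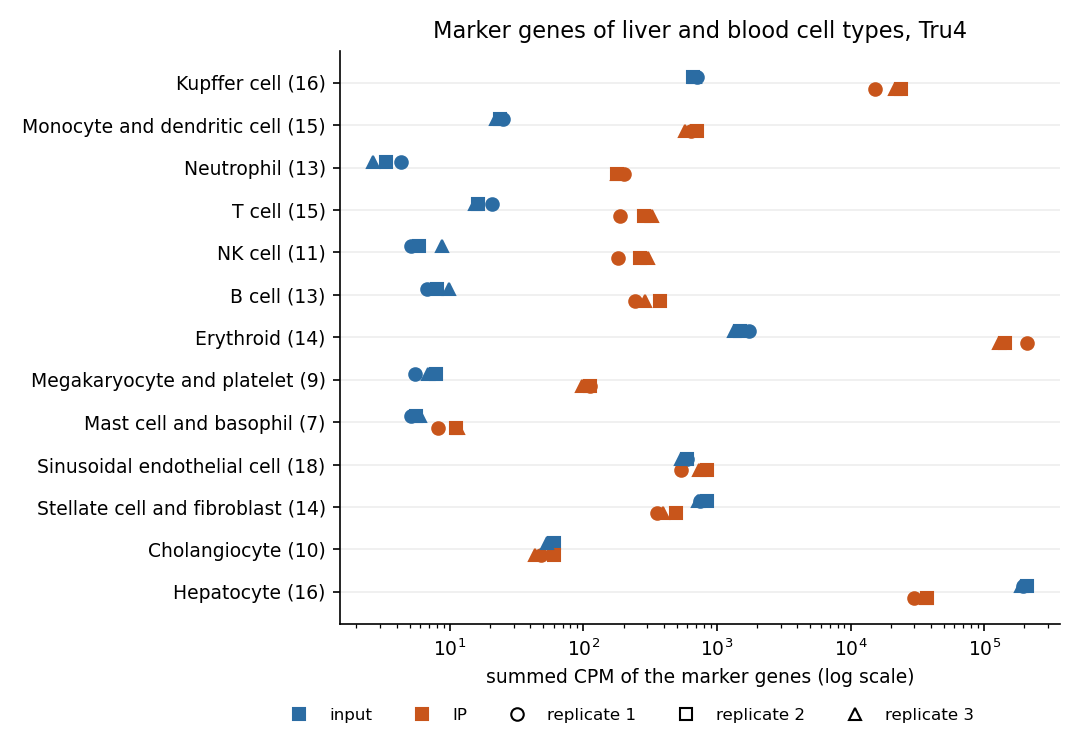
Summed CPM (log axis) of 13 marker lists in the 3 input libraries (blue) and the 3 IP libraries (orange), with replicates 1, 2 and 3 as circles, squares and triangles and the number of genes of each list in brackets. Kupffer cell markers sum to 664 to 709 CPM in input and 15187 to 23686 CPM in IP, and hepatocyte markers to 187401 to 208403 CPM in input and 29672 to 37047 CPM in IP.

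Genes of MHC class II presentation, which load and display peptides to CD4 T cells, rose as a group. All 10 of 10 were higher, and 10 of 10 without replicate 3, with a range of 3.47 to 5.41 on the log2 scale. Of these 10, 8 passed the filter on low counts by their input counts alone, and 2 only through IP. H2-Ab1, a class II beta chain, was at 20.8, 17.02 and 20.8 CPM in the input libraries and 1079, 1280.3 and 1181 CPM in the IP libraries (log2 fold change 5.41 ± 0.20 (SE), edgeR adjusted p = 5.45e-07). H2-Aa, an alpha chain, was at 12.9, 16.3 and 19.5 CPM in the input libraries and 772, 989 and 904 CPM in the IP libraries (log2 fold change 5.25 ± 0.22 (SE), edgeR adjusted p = 5.66e-07), and H2-Eb1 had a log2 fold change of 5.37 ± 0.17. Cd74, the invariant chain that guards the groove until loading, had the highest CPM of the list with 43.7, 43.8 and 46.2 CPM in the input libraries and 1561, 2951 and 2602 CPM in the IP libraries (log2 fold change 5.19 ± 0.23 (SE), edgeR adjusted p = 6.29e-07).

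Class II genes are known to share a promoter module whose Y box is an inverted CCAAT element, and 6 of the 10 genes had exactly 1 promoter in the RefSeq table (GRCm38.p6). The 120 bases before each start are given below in the direction of transcription, to show the element in genes that moved together. They lie at chr17:34287824-34287943 on the minus strand, and on the plus strand at chr17:34305747-34305866, chr17:34153071-34153190, chr17:34145129-34145248, chr17:34092259-34092378 and chr17:34238785-34238904, in the order shown. Capitals mark TGATTGG, the reverse complement of CCAATCA, searched on both strands.
H2-Aa: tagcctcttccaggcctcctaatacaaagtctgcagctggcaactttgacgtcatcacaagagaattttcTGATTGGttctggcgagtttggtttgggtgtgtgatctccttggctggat
H2-Eb1: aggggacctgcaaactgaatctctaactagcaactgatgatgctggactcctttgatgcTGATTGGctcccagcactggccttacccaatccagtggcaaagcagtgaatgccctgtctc
H2-DMb1: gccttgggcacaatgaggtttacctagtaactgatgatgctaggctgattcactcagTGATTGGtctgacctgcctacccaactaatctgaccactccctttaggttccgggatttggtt
H2-DMb2: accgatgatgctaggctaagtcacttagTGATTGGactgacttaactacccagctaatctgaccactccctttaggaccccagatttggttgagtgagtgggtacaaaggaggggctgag
H2-Oa: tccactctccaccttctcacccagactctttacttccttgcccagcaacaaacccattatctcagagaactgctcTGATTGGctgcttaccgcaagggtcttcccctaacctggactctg
H2-Ob: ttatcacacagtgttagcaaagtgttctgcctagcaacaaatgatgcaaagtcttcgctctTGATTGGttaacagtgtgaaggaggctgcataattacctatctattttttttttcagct
Each of the 6 stretches held the motif 1 time, in the same orientation, beginning 45 to 92 bases before the start. Among all 32851 promoters of the table, 5.15% held it on either strand in the same window. The motif was chosen with these promoters in view, a match is a description, and no binding was measured.

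Class I presentation, which most nucleated cells carry out, moved less and in both directions. Of 9 genes 7 were higher and 1 lower, with a median of 1.79. H2-K1, a class I heavy chain, was at 1059, 998 and 1218 CPM in the input libraries and 1386, 1798 and 1870.2 CPM in the IP libraries and did not pass (log2 fold change 0.10 ± 0.17 (SE), edgeR adjusted p = 0.635), while H2-D1, another heavy chain, rose (log2 fold change 1.76 ± 0.17 (SE), edgeR adjusted p = 3.81e-05). The 2 genes are close paralogs, which makes the split of their counts uncertain, and H2-K1 passed as higher with library totals. B2m, the light chain of every class I molecule, overlapped between the fractions at 1273, 1299.6 and 1468 CPM in the input libraries and 607, 1590.3 and 1376 CPM in the IP libraries and was called lower (log2 fold change -0.74 ± 0.26 (SE), edgeR adjusted p = 0.0442), a call that was lost without replicate 2, without replicate 3 and with library totals. The immunoproteasome subunit genes Psmb8 and Psmb9 had log2 fold changes of 3.06 ± 0.21 and 2.86 ± 0.26, and both overlap exons on the opposite strand.

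The 3 chains of C1q, the first component of the classical complement pathway, are made by macrophages, and all of them rose. C1qa was at 54.2, 49.6 and 54.9 CPM in the input libraries and 3647, 3454 and 3283 CPM in the IP libraries (log2 fold change 5.54 ± 0.23 (SE), edgeR adjusted p = 5.45e-07). C1qb and C1qc had log2 fold changes of 5.15 ± 0.19 and 4.87 ± 0.19. With Fcer1g, the signaling chain of Fc receptors (5.17 ± 0.22), and the other members, 8 of 8 genes of the C1q and Fc receptor list were higher, with a range of 4.37 to 5.54.

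Lysosome and phagosome genes covered a wide range. Of 16 genes 13 were higher and 1 lower, between -1.06 to 5.48 on the log2 scale. Ctss, a cathepsin that trims the invariant chain, was at 28.7, 30.04 and 29.1 CPM in the input libraries and 1573, 2144 and 1875 CPM in the IP libraries (log2 fold change 5.48 ± 0.19 (SE), edgeR adjusted p = 5.45e-07). Lyz2, the lysozyme of macrophages and granulocytes, was at 35.6, 38.9 and 39.3 CPM in the input libraries and 1519, 2469 and 1743 CPM in the IP libraries (log2 fold change 5.13 ± 0.22 (SE), edgeR adjusted p = 5.66e-07). Ctsb and Psap, which are used in most cells, were already at 614, 655 and 629 and 504, 514 and 503 CPM in the inputs and had smaller changes of 2.36 ± 0.20 and 2.50 ± 0.17. Of 18 genes of Toll-like receptors and the inflammasome 17 were higher and 1 lower, and of the 16 that passed the filter on low counts by input alone 15 and 1. The single members that were lower in these lists, named after their values were seen, were Ctsl, a cathepsin with a long antisense overlap (-1.06 ± 0.16), and Tlr5, the receptor for flagellin (-1.85 ± 0.58), whose call was lost without replicate 3. Cd14, the co-receptor for lipopolysaccharide, rose from 2.33, 1.98 and 2.15 CPM to 45.5, 99.5 and 100.3 CPM, and Nlrp3, the inflammasome sensor, had a log2 fold change of 4.87 ± 0.37 (edgeR adjusted p = 7.87e-06).

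Iron genes of the recycling list were mostly higher and those of the carrier and sensor list mostly lower, and the cause was not tested. Of the 6 genes for recycling heme iron 5 were higher and 0 lower. With the replicate number as a block Lrp1, a receptor that takes up hemopexin-bound heme, was called lower as well (edgeR adjusted p = 0.0404). Without the block its log2 fold change was -0.42 (edgeR adjusted p = 0.0805), and with library totals it was 0.11. Hmox1, heme oxygenase, which opens the heme ring, was at 23.6, 22.8 and 21.9 CPM in the input libraries and 687, 1026 and 838 CPM in the IP libraries (log2 fold change 4.70 ± 0.18 (SE), edgeR adjusted p = 5.45e-07), and Slc11a1, a phagosomal metal transporter, had a log2 fold change of 4.34 ± 0.24. In contrast, of 7 genes for iron and heme carriers and sensors made in the liver 5 were lower and 1 higher, and 6 were lower with the block, which added Trf, the iron carrier transferrin (edgeR adjusted p = 0.0165), named after its value was seen. Hpx, the heme scavenger hemopexin, was at 3023, 2869 and 2811 CPM in the input libraries and 538, 636 and 652 CPM in the IP libraries (log2 fold change -2.77 ± 0.17 (SE), edgeR adjusted p = 2.54e-06). Hp, the hemoglobin scavenger haptoglobin, and Tfr2, the iron sensor of hepatocytes, had log2 fold changes of -2.24 ± 0.29 and -2.92 ± 0.16. The one that rose was Hfe, which tunes iron sensing (1.25 ± 0.18), and it was named after its value was seen.

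Markers of the other blood lineages were higher in IP. Many of them had so few input counts that the filter on low counts (about 0.300 CPM in 3 libraries) kept them through their IP counts. The filter tilts such genes toward IP: of 1838 tested genes that input counts alone did not keep, 712 were higher, 0 lower and 1126 not called. Among members that passed by input counts alone, 10 of 10 monocyte and dendritic cell markers were higher, 3 of 3 neutrophil markers, 6 of 7 T cell markers, 6 of 6 NK cell markers, 9 of 9 B cell markers and 2 of 2 megakaryocyte and platelet markers. Over all genes that passed in this way 3393 of 14030 were higher. The lists held 15, 13, 15, 11, 13 and 9 members, of which 5, 9, 7, 5, 4 and 7 were tested only through IP. Without replicate 3, 9, 3, 6, 6, 9 and 2 of the members that passed by input alone were higher in the same order. With the block Gp1ba, a platelet adhesion receptor named after its value was seen, was not called (edgeR adjusted p = 0.0801).

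The CD3 chains, which carry the signal of the T cell receptor, were below 1 CPM in each input library. Cd3e, with a small antisense overlap, was at 0.192, 0.704 and 0.876 CPM in the input libraries and 13.3, 23.6 and 32.3 CPM in the IP libraries (log2 fold change 4.70 ± 0.48 (SE), edgeR adjusted p = 4.72e-05). Cd3e was tested only through its IP counts, as was Cd8a, and the filter favored a higher call for both. Cd3g and Cd3d had log2 fold changes of 5.46 ± 0.34 and 5.08 ± 0.25, and the kinase gene Lck had one of 4.93 ± 0.31. Both co-receptors were present in IP, Cd4 at 37.4, 55.1 and 67.96 CPM and Cd8a at 7.54, 12.1 and 14.2 CPM. IP replicate 1 was the lowest IP library for each of these 6 genes. The exception in the list was Tcf7, a transcription factor that acts downstream of Wnt signals in many tissues, which was at 15.5, 10.47 and 8.79 CPM in the input libraries and 13.5, 28.2 and 21.6 CPM in the IP libraries and overlapped between the fractions (log2 fold change 0.33 ± 0.26 (SE), edgeR adjusted p = 0.32). Of the annotated antigen receptor segments that were tested, all 13 of the T cell receptor and 21 of 25 of immunoglobulin genes entered only through their IP counts. The filter therefore favored higher calls among them, and no count of them is drawn on. Tcrg-C2, a constant segment of the gamma chain that is among these 13, was at 0, 0.0440 and 0.0565 CPM in the input libraries and 3.77, 4.52 and 7.83 CPM in the IP libraries (log2 fold change 6.59 ± 0.68 (SE)).

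Granulocyte genes had few counts in input. S100a9, a calcium-binding protein that fills the cytosol of neutrophils, was at 0.895, 0.616 and 0.481 CPM in the input libraries and 78.7, 43.8 and 47.7 CPM in the IP libraries (log2 fold change 5.97 ± 0.41 (SE), edgeR adjusted p = 4.86e-06). Retnlg, a resistin-like cytokine of granulocytes, had 2 counts over the 3 inputs and 414 over the IPs, a ratio of 278 (95% exact interval 76.6 to 2306). Ltf, the granule protein lactoferrin, had 3 and 578 counts, a ratio of 259 (95% exact interval 88.2 to 1260), where the intervals cover counting error only. Irf8, a factor for monocytes and dendritic cells, had the highest CPM of its list in IP with 7.57, 7.06 and 6.79 CPM in the input libraries and 156, 179 and 186 CPM in the IP libraries (log2 fold change 4.09 ± 0.16 (SE), edgeR adjusted p = 5.45e-07). Cx3cr1, a chemokine receptor of monocytes, was at 2.59, 2.38 and 0.763 CPM in the inputs and 150.2, 119 and 49.4 CPM in the IPs, with replicate 3 lowest in both fractions. Cd79a and Cd79b, the signaling chains of the B cell receptor, had log2 fold changes of 5.46 ± 0.29 and 5.11 ± 0.25, and Gzma, a granzyme of NK cells, rose from 0.447, 0.594 and 1.41 CPM to 27.6, 39.9 and 50.2 CPM. Pf4, a chemokine of platelets, had a log2 fold change of 4.98 ± 0.29 (edgeR adjusted p = 1.83e-06).

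Mast cell and basophil markers gave little signal. Of 7 genes 3 were tested and 2 passed the filter by input alone, neither of which was called. Prss34, a basophil protease tested only through its IP counts, had 0 counts in the inputs and 52 in the IPs, at least 7.79-fold higher when each input library is set to a floor of 3 counts. Among all protein-coding genes that passed with separated groups and a mean of at least 1 CPM, the 10 largest increases included H2-M2, Il1rl1, Retnla, Lyz1, Retnlg, Ltf, Prss30, Cd40lg and Cbr2. Each of these genes was tested only through its IP counts. The filter therefore favored a higher call for them, and their ranking is a description. H2-M2, a nonclassical class I gene, and Il1rl1, the receptor for IL-33, had 0 counts in the inputs and were at least 27.97-fold and 24.9-fold higher by the same floor. Lyz1 was at 0.0319, 0 and 0.0565 CPM in the input libraries and 5.10, 12.6 and 6.55 CPM in the IP libraries, and its near copy Lyz2 makes these counts uncertain.

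Hemoglobin mRNA took the largest share of counts in the IP libraries. The adult hemoglobin genes took 12.9% to 20.9% of IP counts and 0.132% to 0.167% of input counts. Hbb-bs, an adult beta globin, was at 772, 678 and 580.0 CPM in the input libraries and 90311, 68577 and 59046 CPM in the IP libraries (log2 fold change 6.28 ± 0.37 (SE), edgeR adjusted p = 2.04e-06). Hba-a1 and Hba-a2, the adult alpha globins, which are near-identical copies so that the split between them is uncertain, had log2 fold changes of 6.55 ± 0.45 and 6.22 ± 0.38, and Hbb-bt had 6.39 ± 0.38. For each of the 4 genes IP replicate 1 was the highest library. That library also had the most counts on rRNA genes, 3.67% against 1.10% and 1.45% in the other IPs, and the smallest total, and the part of these in the difference was not tested.

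Members of the erythroid list other than globins did not all move with them. Of 9 tested 7 were higher, 1 lower and 1 not called, but 5 of the 9 were tested only through their IP counts. Of the 4 that passed the filter by input alone 3 were higher and 1 lower. Alas2, the first enzyme of heme synthesis in red cells, was at 46.2, 39.3 and 24.1 CPM in the input libraries and 198, 593 and 324 CPM in the IP libraries (log2 fold change 2.80 ± 0.36 (SE), edgeR adjusted p = 0.000196). Gata1, the master factor of the lineage, was tested only through its IP counts. It had 0.192, 0 and 0 CPM in the input libraries and 2.33, 0.945 and 0.652 CPM in the IP libraries (log2 fold change 3.99 ± 1.31 (SE), edgeR adjusted p = 0.0303), a call that was lost without replicate 2 and without replicate 3 (edgeR adjusted p = 0.0895). The one that fell was Klf1, a factor that activates the beta globin promoter, with 3.51, 4.60 and 3.73 CPM in the input libraries and 1.11, 1.05 and 2.64 CPM in the IP libraries (log2 fold change -1.82 ± 0.42 (SE), edgeR adjusted p = 0.00544). Its call was lost without replicate 2.

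KLF1 is known to bind CACCC elements of the adult beta globin promoters. The 120 bases before the start of Hbb-bs (chr7:103827929-103828048, minus strand) and Hbb-bt (chr7:103813924-103814043, minus strand, GRCm38.p6, RefSeq) are given with CACCC in capitals, searched on both strands, next to those of Alb (chr5:90460750-90460869, plus strand) with GTTAAT, the core of the HNF1 element, in capitals.
Hbb-bs: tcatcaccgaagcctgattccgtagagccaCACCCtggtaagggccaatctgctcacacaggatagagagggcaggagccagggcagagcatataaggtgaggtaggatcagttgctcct
Hbb-bt: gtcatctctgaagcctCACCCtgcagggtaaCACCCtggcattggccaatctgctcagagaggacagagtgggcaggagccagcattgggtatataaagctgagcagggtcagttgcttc
Alb: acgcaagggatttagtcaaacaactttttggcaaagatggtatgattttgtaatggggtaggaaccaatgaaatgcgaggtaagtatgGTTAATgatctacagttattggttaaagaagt
CACCC occurred in 31.7% of the 32851 promoters in this window and GTTAAT in 2.995%. Hbb-bs had the highest CPM of the adult hemoglobin genes in IP, and Alb the highest of the hepatocyte markers in input. Hbb-bt is shown as the other adult beta globin, and at 13185, 8807 and 7354 CPM it was the lowest of the adult hemoglobin genes in IP.

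Of the transcription factors of blood lineages 9 of 11 tested were higher and 1 lower, and 7 and 1 of the 9 that passed the filter by input alone. Spi1, which encodes PU.1 of macrophages and granulocytes, was at 7.48, 7.06 and 6.62 CPM in the input libraries and 196, 297 and 262 CPM in the IP libraries (log2 fold change 4.63 ± 0.17 (SE), edgeR adjusted p = 5.45e-07). Ikzf1, the lymphoid factor Ikaros, had a log2 fold change of 4.79 ± 0.20. Maf, a factor of tissue macrophages, had the highest CPM of the list in IP, at 644, 502 and 515 CPM, with a smaller change of 3.33 ± 0.23. Cebpe, a granulocyte factor named after its value was seen, was lower (-1.34 ± 0.39), and this call was lost with library totals. Myb, a factor of blood progenitors, had 1 count over the inputs and 155 over the IPs, a ratio of 208 (95% exact interval 36.9 to 8285).

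Markers of the liver's other nonparenchymal cells did not follow the blood cells. Of 18 sinusoidal endothelial markers 2 were higher and 12 lower (median -1.19), and of 14 markers of stellate cells and fibroblasts 1 was higher and 11 lower (median -1.46). With library totals in place of TMM factors, 4 and 7 endothelial and 1 and 7 stellate markers passed as higher and lower, so the size of these groups rests on the scaling. With the block 13 and 12 were lower, which added Rspo3, a Wnt amplifier, and Lrat, which esterifies retinol, both named after their values were seen. Clec4g, a lectin of sinusoidal endothelium, was at 37.2, 32.8 and 28.8 CPM in the input libraries and 13.03, 12.01 and 9.81 CPM in the IP libraries (log2 fold change -1.996 ± 0.22 (SE), edgeR adjusted p = 7.27e-05). Flt4, the receptor VEGFR3, had a log2 fold change of -2.14 ± 0.24. Stab2, a scavenger receptor for hyaluronan, was at 46.7, 45.5 and 46.4 CPM in the input libraries and 72.1, 92.6 and 86.1 CPM in the IP libraries, with higher CPM in every IP library, and did not pass after TMM scaling (log2 fold change 0.34 ± 0.14 (SE), edgeR adjusted p = 0.0657), although it passed as higher with library totals.

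Cdh5 had the largest increase of the endothelial list. It encodes VE-cadherin of endothelial junctions and was at 24.5, 26.04 and 26.5 CPM in the input libraries and 140.3, 302 and 237 CPM in the IP libraries (log2 fold change 2.60 ± 0.22 (SE), edgeR adjusted p = 1.41e-05), with every IP library above every input library. In Tru70 its log2 fold change was 2.46, and no exon on the opposite strand overlaps it. Among stellate and fibroblast markers Dcn, the matrix proteoglycan decorin, was at 163, 179.9 and 166 CPM in the input libraries and 52.96, 47.6 and 50.6 CPM in the IP libraries (log2 fold change -2.25 ± 0.18 (SE), edgeR adjusted p = 1e-05). Col3a1, a fibrillar collagen, and Ecm1, a secreted matrix protein, had log2 fold changes of -1.63 ± 0.22 and -0.90 ± 0.16. Of 9 bile duct markers tested 2 were lower and 0 higher, a lower share of 22.2% that is close to the 24.2% of all genes tested. The 2 were Spp1, osteopontin (-1.21 ± 0.28), and Krt19, a keratin of duct cells (-3.45 ± 0.86). The call of Krt19 was lost without replicate 2, and that of Spp1 with library totals. Pecam1, an adhesion molecule of endothelium, leukocytes and platelets, was the other endothelial marker that rose (0.96 ± 0.17), and Hand2, a transcription factor, was the stellate one (0.68 ± 0.19), with an edgeR adjusted p of 0.12 without replicate 3. Pecam1 and Hand2 were named after their values were seen.

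**Figure D3:**
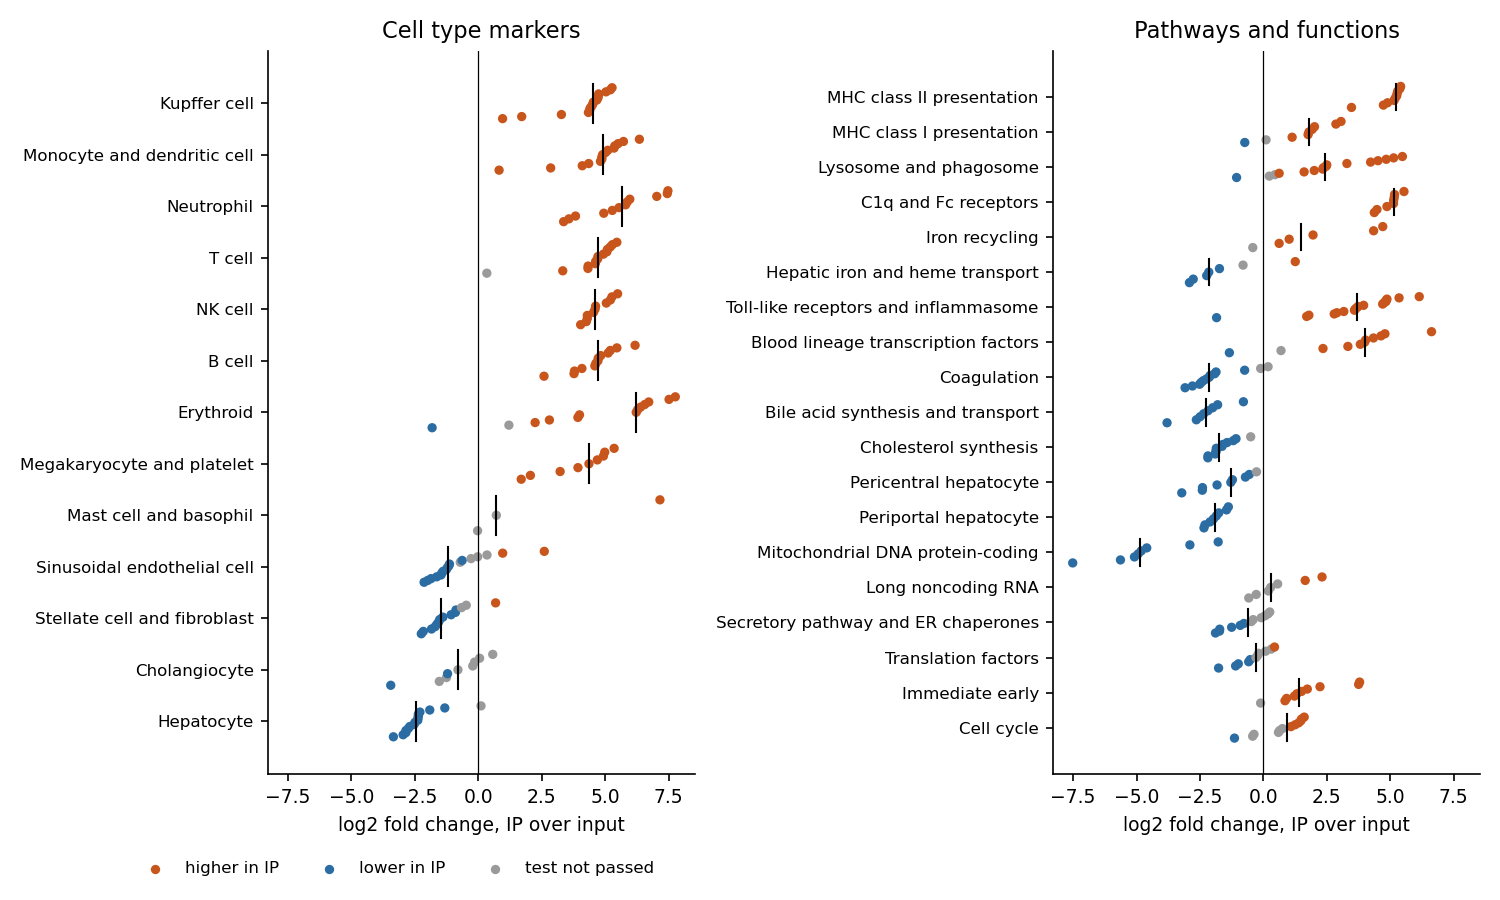
Log2 fold change of IP over input (x axis) of the tested members of each gene list, one point a gene, colored by the edgeR call, with the median as a black line. Kupffer cell markers have a median of 4.52, hepatocyte markers have one of -2.44, and endothelial, stellate and bile duct markers have -1.19, -1.46 and -0.80, with Cdh5 apart at 2.60, while many points of the neutrophil, T cell, erythroid and megakaryocyte lists entered the test only through their IP counts.

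Hepatocyte mRNA fell but stayed abundant in IP. Of 16 hepatocyte markers 15 were lower and 0 higher, and 14 were lower without replicate 3. Their summed level was 194291, 208403 and 187401 CPM in the input libraries and 29672, 37047 and 36454 CPM in the IP libraries, so that they still took 2.97% to 3.70% of IP counts. Alb, serum albumin, was at 131988, 146382 and 136326 CPM in the input libraries and 15080, 21450 and 22133 CPM in the IP libraries (log2 fold change -3.35 ± 0.26 (SE), edgeR adjusted p = 9.6e-06). Apoa1, the protein of high-density lipoprotein, was at 8506, 7839 and 5479 CPM in the input libraries and 2478, 1769 and 1537 CPM in the IP libraries (log2 fold change -2.38 ± 0.31 (SE), edgeR adjusted p = 0.000226). The 3 fibrinogen chains Fga, Fgb and Fgg had log2 fold changes of -2.70 ± 0.18, -2.53 ± 0.22 and -2.86 ± 0.18. Hnf4a, the nuclear receptor that maintains hepatocyte identity, had -1.91 ± 0.17. The exception was G6pc, the last enzyme of glucose release, which was at 368, 649 and 471 CPM in the input libraries and 396, 1044 and 915 CPM in the IP libraries and overlapped between the fractions (log2 fold change 0.10 ± 0.30 (SE), edgeR adjusted p = 0.795). Apoc3, an inhibitor of triglyceride clearance, was next, with 1605, 1523 and 1979.5 CPM in the input libraries and 1425, 532 and 820.2 CPM in the IP libraries (log2 fold change -1.32 ± 0.39 (SE), edgeR adjusted p = 0.0199), and was not called without replicate 2 or without replicate 3 (edgeR adjusted p = 0.168).

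Hepatocyte pathways fell together with these markers. Coagulation genes were lower for 11 of 13 and higher for 0, with a median of -2.14. F2, prothrombin, was at 1997, 1922 and 1842 CPM in the input libraries and 475, 448 and 503 CPM in the IP libraries (log2 fold change -2.51 ± 0.18 (SE), edgeR adjusted p = 6.29e-06), and F5 and Serpinc1, the latter encoding antithrombin, had log2 fold changes of -3.09 ± 0.17 and -2.80 ± 0.18. Bile acid genes were lower for 8 of 8 (median -2.27). Cyp7a1, the rate-limiting enzyme of bile acid synthesis, was at 93.8, 187 and 167 CPM in the input libraries and 17.2, 46.8 and 53.3 CPM in the IP libraries (log2 fold change -2.50 ± 0.37 (SE), edgeR adjusted p = 0.000477), and Slc10a1, which takes bile acids up from the blood, had the largest fall of the list (-3.80 ± 0.44). Cholesterol synthesis genes were lower for 11 of 12 (median -1.74), and for 12 of 12 with the block, with Sqle, an early enzyme of the sterol branch, at -1.90 ± 0.21.

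Both zones of the lobule were lower. Of 9 pericentral genes 8 were lower and of 8 periportal genes 8 were lower, with medians of -1.28 and -1.91. Cyp1a2 and Cyp2e1, pericentral P450 enzymes, had log2 fold changes of -3.22 ± 0.20 and -2.40 ± 0.33, and Gls2 and Cyp2f2, on the periportal side, had -2.34 ± 0.28 and -1.97 ± 0.29. Glul, glutamine synthetase, which is pericentral in hepatocytes and is used in many other cells, was at 844, 741 and 848 CPM in the input libraries and 726, 768 and 859 CPM in the IP libraries and overlapped between the fractions in CPM (log2 fold change -0.56 ± 0.16 (SE), edgeR adjusted p = 0.0172). With library totals, and also without replicate 3, 6 pericentral and 6 periportal genes were lower, and Glul was not called in either. Pck1, the first committed enzyme of gluconeogenesis, differed between the animals in the inputs, with 649, 2869 and 1912 CPM, and had the same order in IP with 272, 1085 and 881 CPM. Its call as lower was lost without replicate 3 (edgeR adjusted p = 0.103).

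Among 74 cytochrome P450 genes 54 were lower and 4 higher, with a median of -2.08. The 4, named after their values were seen, were Cyp11a1, Cyp4f18, Cyp1b1 and Cyp4f16, with log2 fold changes of 6.95 ± 1.48, 4.94 ± 0.38, 1.85 ± 0.65 and 1.58 ± 0.21. The largest decreases among protein-coding genes outside the mitochondrial genome were in conjugating enzymes and a complement gene. Ugt1a9 was at 46.9, 49.2 and 29.9 CPM in the input libraries and 0.277, 3.43 and 1.47 CPM in the IP libraries (log2 fold change -5.11 ± 0.56 (SE), edgeR adjusted p = 7.63e-05). Ugt1a6b and Ugt1a1 had log2 fold changes of -4.71 ± 0.32 and -4.28 ± 0.66, and since Ugt1a genes share their last exons, counts are uncertain for each of them. Ugt3a1, of a separate locus, had -4.54 ± 0.46, and C1rb, a complement protease with a close paralog, had -4.61 ± 0.37.

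The steepest fall was in transcripts of the mitochondrial genome, which are translated by mitochondrial ribosomes inside the organelle. All 8 tested protein-coding genes of mtDNA were lower, as were 12 of 12 when tRNA and rRNA genes were included, and 8 of 8 without replicate 3. Mitochondrial protein-coding genes took 5.47% to 7.29% of input counts and 0.514% to 0.721% of IP counts. mt-Co1, a subunit of cytochrome c oxidase, was at 17362, 20208 and 23039.5 CPM in the input libraries and 542, 1161 and 1202 CPM in the IP libraries (log2 fold change -4.94 ± 0.32 (SE), edgeR adjusted p = 3.25e-06). mt-Nd5, a subunit of complex I, was at 3791, 4586 and 6163 CPM in the input libraries and 107, 163 and 153 CPM in the IP libraries (log2 fold change -5.63 ± 0.28 (SE), edgeR adjusted p = 9.06e-07). mt-Nd1, another complex I subunit, fell least, with 5865, 6285 and 8297 CPM in the input libraries and 2068, 3239 and 3305 CPM in the IP libraries (log2 fold change -1.78 ± 0.23 (SE), edgeR adjusted p = 0.000179). mt-Co2, tested only through its input counts, had 70 counts in the inputs and 0 in the IPs, at least 4.91-fold lower with each IP library at a floor of 3 counts, and 5 more genes had too few counts for a test. Nuclear genes for the respiratory chain, which cytosolic ribosomes translate, had a median of -0.77, with 49 of 90 lower and 2 higher. The scaling bears on this value: the median log2 ratios of CPM, with 0.5 CPM added to each value, were 0.02, -0.50 and -0.44 in replicates 1, 2 and 3. The 2, named after their values were seen, were Cox6a2 (4.45 ± 0.97), a subunit form of muscle, and Cox14 (0.92 ± 0.32), an assembly factor.

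Genes of the translation machinery moved little on balance. Of 78 cytosolic ribosomal protein genes 6 were higher and 6 lower (7.69% each), with a median of 0.05. For this and the next lists, the shares over all genes tested were 25.9% higher and 24.2% lower. Eef1a1 and Eef2, elongation factors, had log2 fold changes of -1.10 ± 0.19 and -0.99 ± 0.16, and 5 of 11 translation factors were lower and 1, Eif4a1, named after its value was seen, was higher (0.44 ± 0.16), a call that was lost without replicate 3. With library totals 2 translation factors were higher and 3 lower. ER chaperone and secretion genes were lower for 6 of 12 and higher for 0, but 3 were lower and 3 higher with library totals, and 8 lower and 0 higher with the block, so the direction of the group depends on the scaling. P4hb, protein disulfide isomerase, was at 1803, 1712 and 1697 CPM in the input libraries and 668, 777 and 805 CPM in the IP libraries (log2 fold change -1.72 ± 0.16 (SE), edgeR adjusted p = 2.49e-05).

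Immediate early genes, which respond within minutes to stimuli and to tissue handling, were higher for 9 of 10 and lower for 0, and for 8 and 0 of the 9 that passed the filter by input alone. Fos was at 1.18, 0.902 and 0.679 CPM in the input libraries and 18.6, 22.9 and 10.7 CPM in the IP libraries (log2 fold change 3.75 ± 0.38 (SE), edgeR adjusted p = 4.79e-05), and Dusp1, a phosphatase of MAP kinases, rose from 39.1, 19.2 and 26.7 CPM to 127, 149.1 and 123 CPM. Cell cycle genes were higher for 6 of 12 and lower for 1, which was Cdc20, an activator of anaphase named after its value was seen (-1.14 ± 0.32), and 9 and 0 passed with library totals and 8 and 1 with the block. Over all genes tested 25.9% were higher and 24.2% lower. Mki67, a marker of dividing cells, was at 15.97, 22.5 and 19.5 CPM in the input libraries and 60.3, 61.5 and 96.4 CPM in the IP libraries (log2 fold change 1.39 ± 0.21 (SE), edgeR adjusted p = 0.000557), and Top2a, which untangles DNA at mitosis, had 1.61 ± 0.24. Of 7 long noncoding RNAs tested 2 were higher, a share of 28.6% that is close to the 25.9% of all genes tested. H19, an imprinted RNA, was at 8.79, 10.3 and 6.56 CPM in the input libraries and 37.4, 96.9 and 50.9 CPM in the IP libraries (log2 fold change 2.31 ± 0.31 (SE), edgeR adjusted p = 0.000242), and Kcnq1ot1, which overlaps coding exons on the other strand, had a log2 fold change of 1.65 ± 0.24. Malat1, a nuclear RNA, was at 238, 279.8 and 335 CPM in the input libraries and 113, 205 and 534 CPM in the IP libraries and did not pass (log2 fold change -0.58 ± 0.42 (SE), edgeR adjusted p = 0.289), but was called lower without replicate 3 (edgeR adjusted p = 0.0138) and with the replicate number as a block.

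By the longest annotated transcript of a gene, pooled medians lay close together while single animals went different ways. The median log2 fold change was -0.07 for 675 genes up to 0.5 kb, -0.16 for 1163 genes of 0.5 to 1 kb, -0.04 for 13669 genes of 1 to 10 kb and 0.04 for 324 genes over 10 kb. Medians within replicates were taken of log2 ratios of CPM with 0.5 CPM added to each value, which shrinks ratios of genes with few counts. Up to 0.5 kb and over 10 kb they were 0.43 and 0.20 in replicate 1. In replicates 2 and 3 they were 0.25 and 0.58, and 0.19 and 0.72. Among protein-coding genes 23.1% were higher and 17.9% lower for 39 genes up to 0.5 kb, 28.3% and 20.4% for 501 genes of 0.5 to 1 kb, and 28.9% and 26.2% for 12508 genes of 1 to 10 kb. For 319 protein-coding genes over 10 kb the shares were 25.4% and 24.1%. Among 1224 processed pseudogenes 7.76% were higher and 19.6% lower, with a median of -0.30.

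**Figure D4:**
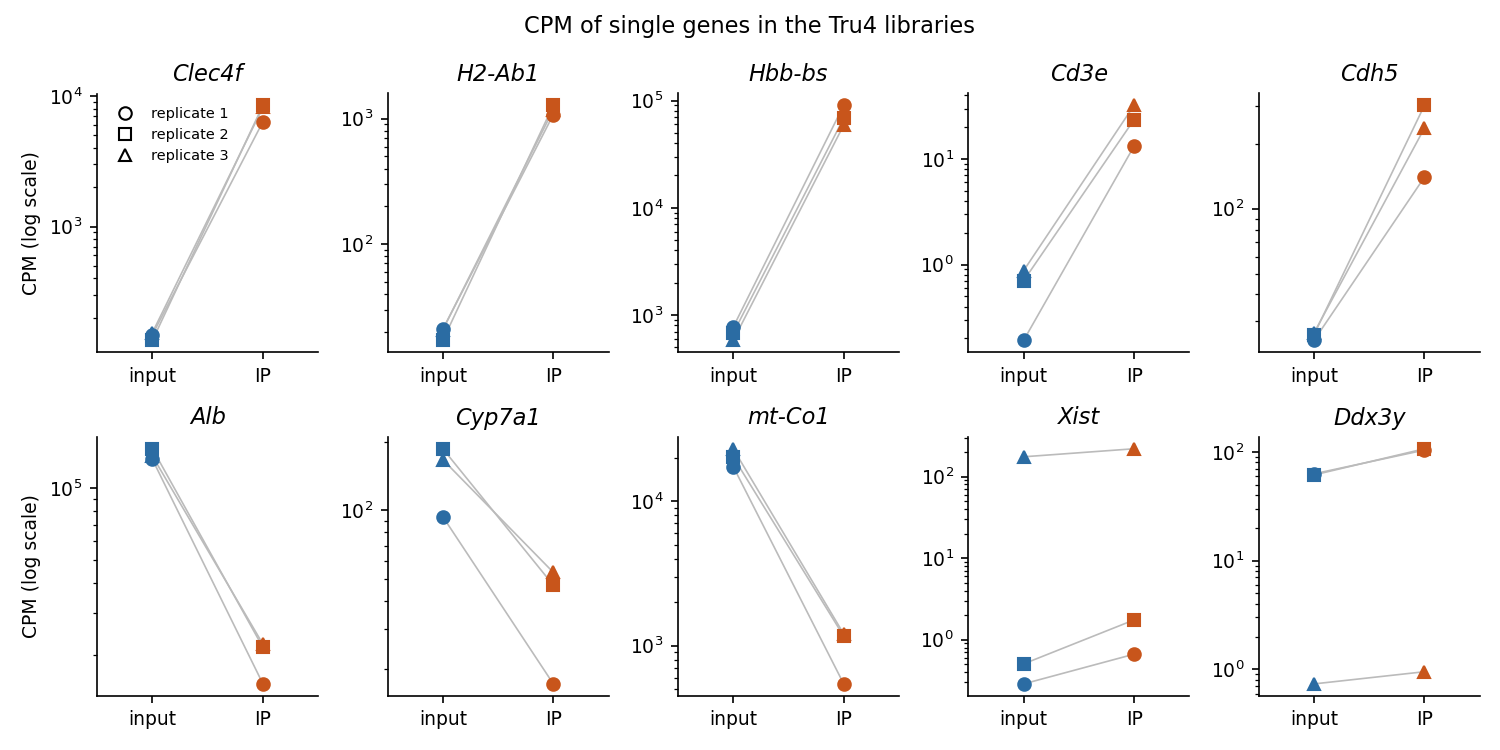
CPM (log axes that differ between panels) of 10 genes in input (blue) and IP (orange), with lines joining the libraries of one replicate number and replicates 1, 2 and 3 as circles, squares and triangles. Clec4f, H2-Ab1, Hbb-bs, Cd3e and Cdh5 rise and Alb, Cyp7a1 and mt-Co1 fall in each animal, while Xist and Ddx3y separate replicate 3 from the others in both fractions.

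Gene numbers were what the exchange was set by, so they are given as a description. At least 1 count was found for 19800 ± 147.9 genes (SD, n = 3) in input and 19176 ± 1862 in IP, and after all libraries were drawn down to 18031264 counts, for 18877 ± 238 and 18726 ± 1374. IP replicate 1, with the smallest total, had 17467 genes, and IP replicate 3 had 21161, the most of the 6. Within each animal, genes with at least 20 input counts were compared as CPM ratios: 3328, 4465 and 4566 genes were at least 2-fold higher in IP for replicates 1, 2 and 3, and 2805, 2191 and 1601 at least 2-fold lower. Libraries ranged from 18031264 to 45466334 counts, so that 3 counts are 0.0660 to 0.166 CPM.

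A few genes followed the animal more than the fraction, among them genes whose direction turned when the fractions were taken as labelled. Cyp3a41b and Cyp3a41a, near-identical P450 genes that mouse liver expresses mostly in females, were at 23.6, 5.74 and 165 and 21.4, 3.78 and 154 CPM in the inputs and 4.99, 0.770 and 45.3 and 2.38, 0.595 and 24.6 CPM in the IPs. Within each animal IP was lower, but with animals as plain replicates neither passed (edgeR adjusted p = 0.158 and 0.082). With the replicate number as a block both passed, with log2 fold changes of -2.74 and -3.34 (edgeR adjusted p = 4.84e-06 and 5.18e-07). Ntrk2, a neurotrophin receptor, was at 1.44, 1.85 and 11.7 CPM in the input libraries and 1.28, 1.30 and 4.65 CPM in the IP libraries (log2 fold change -1.60 ± 0.83 (SE), edgeR adjusted p = 0.141, and -1.25 and 0.0242 with the block).

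Tru70 is the same kit with 70 ng of RNA from the same biological replicates, and its labels were used as deposited. The study also modified the protocol for Tru4, with a smaller end-repair reaction, no size selection and more PCR cycles. RNA amount and protocol therefore cannot be told apart. IP against input gave 2665 higher (18.1%) and 2458 lower genes (16.7%) of 14707 tested, 34.8% in all. Of the genes called in Tru4, 2537 higher and 2253 lower ones were also called in Tru70, and 0 were called the opposite way, while 284 were not tested in Tru70. The spread between replicates was wider in Tru70, with a common biological coefficient of variation of 0.572 against 0.289 in Tru4, each over its own tested genes. For Clec4f the log2 fold change was 5.20 in Tru4 and 5.37 in Tru70, for Hbb-bs 6.28 and 6.15, for Alb -3.35 and -3.02, and for mt-Co1 -4.94 and -4.79. The difference of the change between Tru4 and Tru70, tested as an interaction over the 12 libraries, passed for 0 of 16644 genes by edgeR, with 830 at an unadjusted p under 0.05. It was -0.20 ± 0.22 (SE) for Clec4f and -0.36 ± 0.25 for Alb, so differences of the order of these errors were not detectable, and the 0 does not show that the changes were alike.

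**Figure D5:**
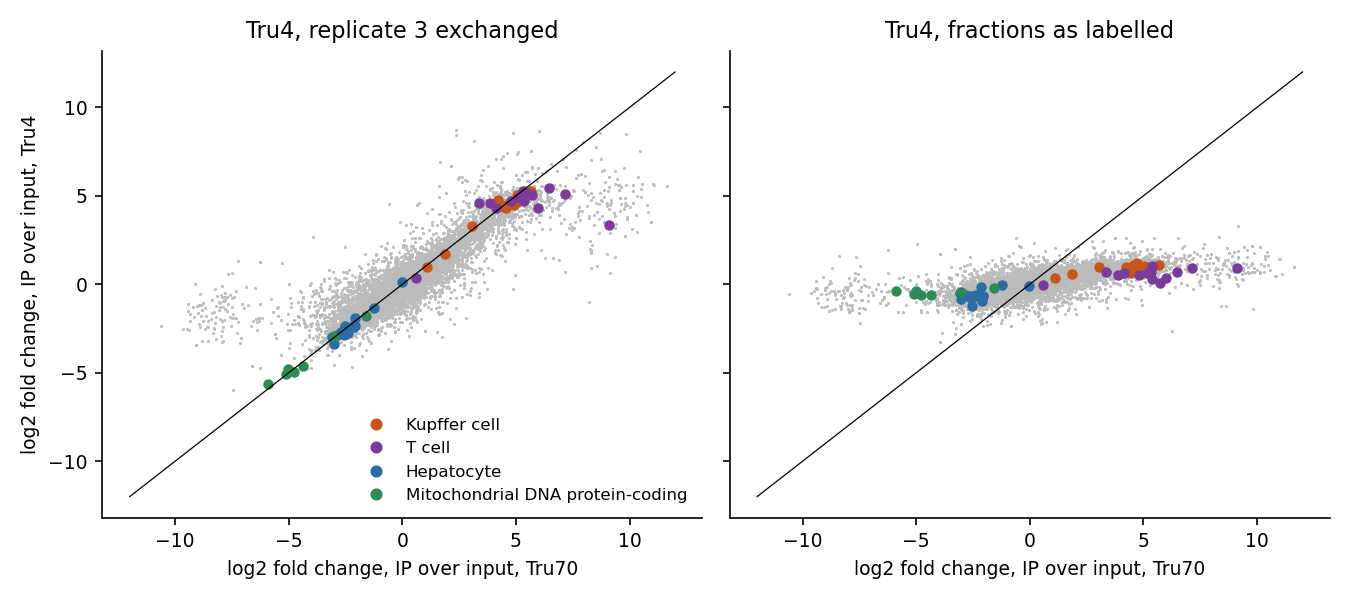
Log2 fold change of IP over input in Tru70 (x axis) and Tru4 (y axis) for genes tested in both (gray), with members of 4 lists in color and the line of equal change, for the exchanged libraries (left) and the fractions as labelled (right). With the exchange Clec4f lies at 5.37 and 5.20, and as labelled the Tru4 changes of all lists shrink toward 0 (median 0.96 for Kupffer cell markers).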

How the data were processed

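Gene counts of the 6 Tru4 and 6 Tru70 libraries were used. The authors removed adapters (Trimmomatic), aligned reads with TopHat to GRCm38 and deposited whole-number counts per Ensembl gene and library (the methods name both HTSeq and Bedtools for counting, the latter for exons, and which of them made these files and the strand setting are not given in the sources used here). The reads or read pairs of a gene are not molecules, so intervals cover counting error only. The deposited RPKM values were not used, nor were the libraries of the other protocols. Each table held 47729 genes, and its 5 closing lines, such as reads outside genes, were left out of all totals. These reads were 14.6% for IP replicate 1, the highest of the 6.

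Of the Tru4 libraries, the 2 of replicate 3 were exchanged between the fractions, and all other samples were grouped by their labels. Replicate numbers stand for biological replicates. Deviations from the group means correlated at 0.160, 0.144 and 0.223 between same-numbered input and IP libraries and at -0.193 to -0.037 between others. Deviations cancel out within a group, so positive same-numbered values push the others down. The numbers were taken to pair the libraries, and a fit with the number as a block was run as an alternative.

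IP was tested against input with edgeR 4.0.16 in R 4.3.3 (filterByExpr, TMM factors, quasi-likelihood test, Benjamini-Hochberg adjusted p under 0.05), with no block, and the difference between Tru4 and Tru70 as an interaction over 12 libraries. The scripts were tested on simulated data. Printed CPM are counts over library totals without TMM factors, and log2 fold changes are IP minus input with TMM factors. Totals of 18031264 to 45466334 counts set the depth, and a floor of 3 counts per library was used for genes at 0. DESeq2 1.42.0 and other factors, filters and sets of libraries were run as alternatives. Members of 33 gene lists were followed, 361 of 379 with enough counts for a test, and 1 listed gene had no match. Named genes were the targeted genes, the 10 largest changes in each direction among protein-coding genes with separated groups and a mean of at least 1 CPM, the 3 largest others, the 3 highest and the 3 most changed members of each list, all Kupffer, T cell, erythroid and hepatocyte members, and the 3 highest genes that turned with the labels by at least 2-fold each way. The members, the lists and the motifs were chosen with earlier results of these data known. Annotation was GENCODE on GRCm38, and promoters came from RefSeq (GRCm38.p6). A few genes that this rule names are not reported here.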

Additional observations from a re-analysis of the deposited data

How the results depend on the processing

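With the fractions as labelled, 0 genes were higher and 0 lower, and 0 members of the 33 lists passed in either direction, against 192 higher and 116 lower with the exchange. Leaving out a replicate or a single library gave 3058 to 4728 higher and 2620 to 4248 lower genes. Library totals without factors gave 6035 higher and 1965 lower genes, because the median of all genes then moved up. The same scaling was applied to the gene lists after the data were seen, and it gave 206 higher and 90 lower members. The replicate block gave 4198 and 4255 genes, of which 4015 and 3764 were also called without it, and among 128 genes named by rule the block changed only the calls of Malat1, Cyp3a41b, Cyp3a41a, Ntrk2 and Lrp1. Of these 128, calls of Gata1, Krt19, Klf1, Apoc3, B2m, Glul and Pck1 were lost on leaving out 1 or more libraries, at most 7 at a time, and Gfi1, Rpl22, Tcf7, Stab2, Malat1, Cyp3a41a and Cyp3a41b were gained, at most 3 at a time. DESeq2 gave 4435 and 3940 genes, RLE factors 4225 and 3697, all genes with a count 4062 and 4036, a CPM filter 3984 and 3822, leaving out rRNA and hemoglobin genes 4116 and 3863, and 12 libraries in one fit 3077 and 2801. The interaction with Tru70 stayed at 0 adjusted calls under the 7 alternatives run, with 514 to 1331 genes at an unadjusted p under 0.05.

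The mean number of genes detected in input was 16965 at a minimum of 5 counts, 20310 with the fractions as labelled and 18877.3 at one depth, and in IP it was 17040 at a minimum of 5 counts. As labelled, log2 fold changes turned for Rpl22 (0.36), Cd40lg (-0.81), Tcf7 (-0.042), G6pc (-0.10), Cyp3a41b (1.56), Cyp3a41a (1.97) and Ntrk2 (1.14), and the cause was not tested. Rpl22 was at 0.29 and Lrp1 at 0.11 with library totals, and Rpl22 lay between -0.71 and 0.14 when libraries were left out. Over the same omissions G6pc ranged from -0.12 to 0.43 and Ntrk2 from -2.43 to 0.0089. Genes with 0 to 3 counts in input, such as H2-M2, have fold changes that depth limits to a lower bound or a wide interval.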
